A study of Mus musculus with 12 samples.

Results

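The clustered protocadherins are a large family of cell adhesion genes that lie side by side on mouse chromosome 18 in the order Pcdha, Pcdhb and Pcdhg. They were taken as the protein-coding genes of this chromosome whose symbol begins with Pcdha, Pcdhb or Pcdhg in GENCODE release M21 (GRCm38), which gave 57 genes of 21755 protein-coding genes on chromosomes 1 to 19 and X. The measurement was H3K27me3, the repressive trimethylation of histone H3 lysine 27 that is set by Polycomb repressive complex 2, and it was obtained by ChIP-seq in iMEF cells, a line of immortalized fibroblasts from mouse embryos.

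In these cells both floxed Ash2l alleles had been recombined by an inducible Cre-ER, and proliferation depended on a lentiviral fusion of FKBP with human ASH2L, a core subunit of the COMPASS/KMT2 complexes. This genotype was common to all groups, treated or not. The ligand dTAG brings about degradation of the fusion protein. The H3K27me3 libraries came from untreated cells and from cells kept with dTAG for 16 h, 24 h or 48 h, with 2 libraries in each of these groups, and 4 input libraries came from untreated cells and cells treated for 48 h (2 each). They belong to the second H3K27me3 experiment of the study, and its first H3K27me3 experiment was not analysed here. The study names NG3 cells, a single clone, for its H3K27me3 ChIP-seq, so that the libraries do not represent different clones.

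The values analysed here are the start and end of each H3K27me3 site in 1 deposited list for the 8 H3K27me3 libraries together, 101389 sites in all. This list gives no value for a library, a group or a replicate. With this list alone, a difference in H3K27me3 at protocadherin genes between untreated and treated cells cannot be tested, no replicate error can be given, and the read depth behind a site is unknown. The authors' own comparison of time points was not analysed here. What follows describes where the pooled list places H3K27me3 among the protocadherin genes, without a test, and sets it beside the same count over all genes.

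Protocadherins of the clusters are transmembrane proteins that bind identical copies on a neighbouring cell, and in the nervous system the combination carried by a neuron lets it tell its own branches from those of other cells. Each gene of the Pcdha and Pcdhg clusters has a large variable first exon with a promoter of its own, which is spliced to 3 constant exons shared by the whole cluster. Genes of the Pcdhb cluster consist essentially of 1 large exon. A neuron uses a few of the numbered promoters, chosen at random with the help of CTCF and cohesin, whereas the C-type genes at the ends of the Pcdha and Pcdhg clusters (Pcdhac1, Pcdhac2, Pcdhgc3, Pcdhgc4 and Pcdhgc5) do not follow this random choice. In many cells outside the nervous system these promoters are silent.

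H3K27me3 sites lay at a few of these genes, and their density differed from cluster to cluster. There were 7.77 sites per Mb in Pcdha, 46.2 in Pcdhb and 0 in Pcdhg, against 39.6 over all chromosomes and 30.6 on chromosome 18. A promoter site is a listed site with at least 1 bp within 1 kb of an annotated transcription start. Of the 57 genes, 8 had a promoter site (14%, 95% Wilson interval 7.29% to 25.3%), against 26.9% of all protein-coding genes, 23.2% of those of chromosome 18 and 24.3% of the other 456 protein-coding genes of chromosome 18. The interval covers counting error only, and it treats genes as independent, which neighbours in a cluster are not. Within 500 bp of a start 6 members had a site, against 24.7% of all protein-coding genes and 21.4% of those of chromosome 18. Within 3 kb there were 9, against 33.5% and 28.3%. By cluster, in Pcdha 2 of 14 genes had a promoter site, in Pcdhb 6 of 22, and in Pcdhg 0 of 21. The Pcdhb share of 27.3% was close to the share of all genes when sites of any width were counted. It was 13.6% against 24.9% with sites of at least 500 bp only, and 9.09% against 22.4% with sites of at least 1000 bp. In the window of 500 bp it was 18.2% against 24.7%, and in that of 3 kb 31.8% against 33.5%. In other settings the Pcdhb share was the higher one. It was 22.7% against 18.5% with the centre of the site in the window, and 27.3% against 24.1% with outermost starts only. The marked genes were Pcdhac1, Pcdhac2, Pcdhb1, Pcdhb13, Pcdhb14, Pcdhb15, Pcdhb16 and Pcdhb17.

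**Figure D1:**
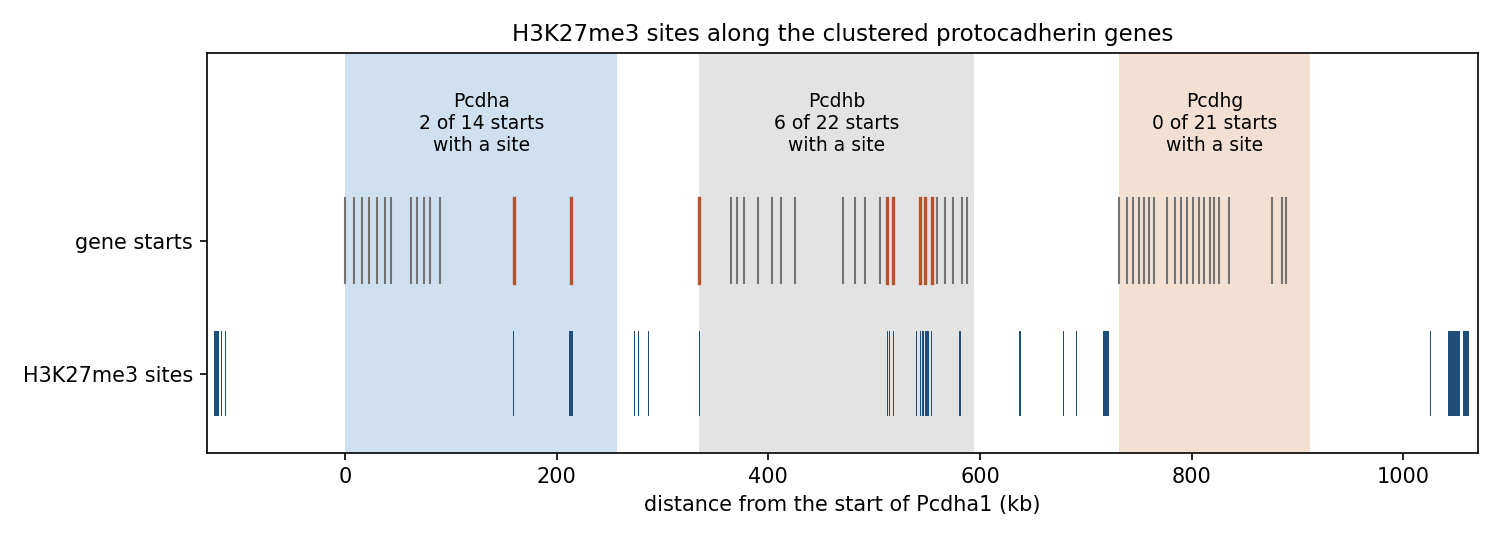
Position of H3K27me3 sites (blue; sites narrower than 0.8 kb are drawn 0.8 kb wide) and of the 57 gene starts (orange with a promoter site, grey without) along the locus, in kb from the start of Pcdha1; shaded blocks are the Pcdha, Pcdhb and Pcdhg clusters. The Pcdha block held 2 sites, at Pcdhac1 and Pcdhac2, the Pcdhb block held 12, of which 1 lay at Pcdhb1 and 9 from Pcdhb13 to Pcdhb17, and the Pcdhg block held none. The other 10 sites between Pcdha1 and the end of Pcdhg lay between the blocks.

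The Pcdha cluster extends from 36930184 to 37187661 of chromosome 18 (257478 bp, all positions in GRCm38). Only 2 sites lay in it, with 5052 covered bases or 1.96% of its length. Both were at the C-type genes. The site at Pcdhac1 (37089346 to 37090106, 761 bp) ran from 667 bp upstream of the start at 37090013 into the first 94 bp of the variable exon. The site at Pcdhac2, a gene known for its role in the spacing of serotonergic axons, was 4291 bp wide (37141405 to 37145695). It extended from -2098 to 2192 bp relative to the start at 37143503 and covered 72.4% of the variable exon of 3028 bp.

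None of the 12 numbered Pcdha genes, from Pcdha1 at 36930184 to Pcdha12 at 37020149, had a promoter site. Their starts lay together in a stretch of 246005 bp without any site, between 36843340 and 37089346. The closest site was 86844 bp from the start of Pcdha1, 69197 bp from the start of Pcdha12 and 121696 bp from that of Pcdha6. The latter distances were the smallest and the largest of the 12. Distances are given from the closest annotated start of a gene. The annotation gives the symbol Pcdha11 to 2 gene records of this row, and both were counted as members. None of the shared exons of the cluster, between 37156155 and 37187657, touched a site.

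The Pcdhb cluster, from 37264938 to 37524479 (259542 bp), held 12 sites that covered 9218 bp or 3.55% of it. This share was 2.07% with sites of at least 1000 bp only and 5.79% after merging of sites less than 3 kb apart. The first gene and a group of neighbours near the other end were marked, and the genes between them were not. At Pcdhb1 a site of 334 bp (37264822 to 37265155) lay over the start. Then no site occurred for 177501 bp, up to 37442657, and the starts of all 11 genes from Pcdhb2 to Pcdhb12 were in this interval, together with that of Pcdhb13 at its end. The distances of these 11 genes to the closest site ranged from 7036 bp for Pcdhb12 to 87386 bp for Pcdhb8.

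From Pcdhb13 to Pcdhb17, in contrast, each gene had a promoter site. This stretch of 46955 bp held 9 of the 12 sites and 91.3% of the covered bases of the cluster, and 17.9% of its length was covered. At Pcdhb13 (start 37442500) a site of 531 bp began 157 bp downstream of the start, and a second one of 425 bp lay farther into the exon (37444043 to 37444467). At Pcdhb14 (start 37447656) a site of 358 bp began 690 bp downstream. The variable exon of Pcdhb14, which is 8695 bp long in the annotation, was covered by 4.12% only.

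The wide sites of the cluster were at the next pair of genes. At Pcdhb15 (start 37473540) a site of 1318 bp (37473487 to 37474804) ran over the start, and with a further site of 746 bp (37475196 to 37475941) it covered 71.8% of the exon. At Pcdhb16 (start 37477814) the widest site of the cluster, 4063 bp (37478060 to 37482122), began 246 bp downstream of the start and covered 77.8% of the exon. Besides these, a narrow site of 224 bp lay between both genes, and a site of 475 bp (37469791 to 37470265) preceded Pcdhb15 by 3275 bp.

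Pcdhb17 (start 37484795) was marked only by a site of 278 bp (37483906 to 37484183), which ended 612 bp upstream of the start and lay outside annotated exons. Pcdhb14 and Pcdhb17 were therefore the marked genes with the largest distance between start and site. The unmarked gene with the smallest distance was Pcdhb21, where a site of 284 bp ended 1770 bp upstream of the start. The remaining genes of this end, Pcdhb18, Pcdhb19, Pcdhb20 and Pcdhb22, were between 5282 and 12808 bp from the closest site, Pcdhb22 at 6020 bp.

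**Figure D2:**
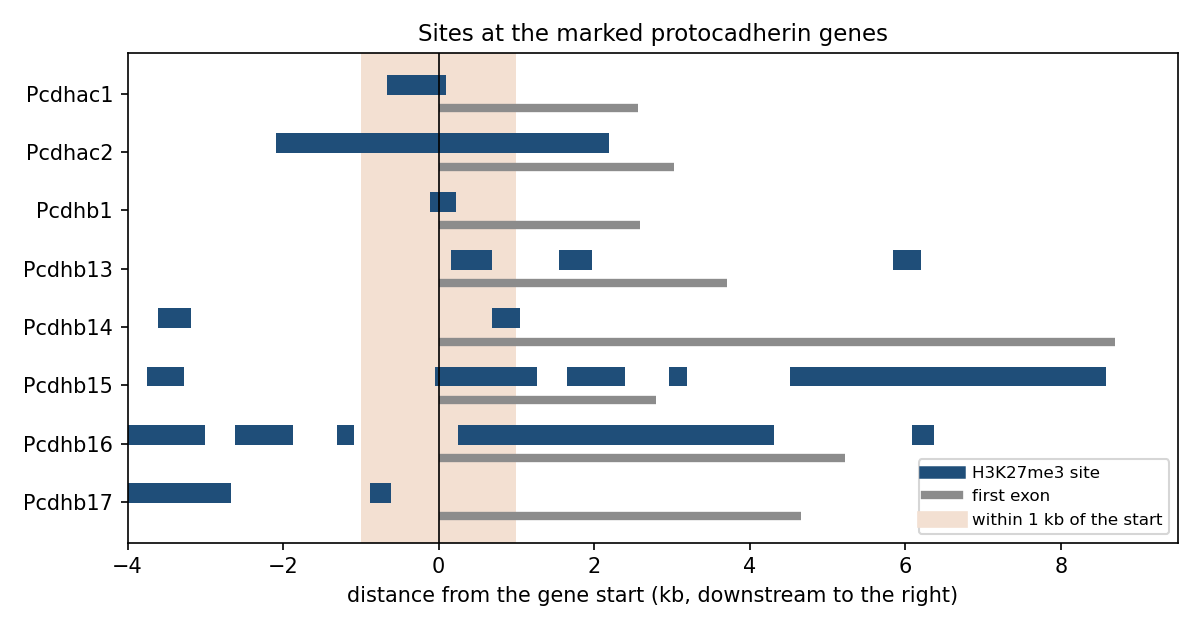
H3K27me3 sites (blue bars) around the starts of the 8 protocadherin genes with a promoter site, in kb from each start, with the first exon of the gene below them (grey) and the window of 1 kb on each side shaded. Sites covered 71.8% to 77.8% of the first exon at Pcdhac2, Pcdhb15 and Pcdhb16, and the promoter sites of the other 5 genes were 278 to 761 bp wide. Sites of neighbouring genes appear in the rows from Pcdhb13 to Pcdhb17.

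The Pcdhg cluster, from 37661793 to 37841873 (180081 bp), held no site at all. This applied to the 18 numbered genes from Pcdhga1 to Pcdhga12, to the C-type genes Pcdhgc3, which binds Axin1 and promotes dendrite growth, Pcdhgc4, which is required for the survival of many neurons, and Pcdhgc5, and to the shared exons. The 21 starts lay within the longest site-free stretch of the locus, 303552 bp from 37652123 to 37955676. Its borders were a site of 1024 bp that ended 9670 bp upstream of Pcdhga1 and a site of 401 bp at Rell2 and Hdac3. For Pcdhgc3 the closest site was 149260 bp away, the largest distance of the 57 genes, and it was 140220 bp away for Pcdhgc4 and 136022 bp for Pcdhgc5. Pcdhgb8, annotated as a polymorphic pseudogene and so not a member, lay in the same stretch.

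Whether a stretch as long as this was unusual depended on how it was counted. By number of gaps it was uncommon, but windows of the Pcdhg length without a covered base were common. The share of gaps counts short and long gaps alike, so it does not give the part of the genome in such stretches. Of 101285 gaps between neighbouring sites, 1548 (1.53%) were at least as long, 1.90% were at least as long as the gap over the numbered Pcdha genes, and 2.66% at least as long as that over Pcdhb2 to Pcdhb12. When the chromosomes were divided into consecutive windows of 180081 bp, 43.5% of the 14097 windows had no covered base either. Of windows with the length of the Pcdha cluster, 59.6% had a lower covered share than this cluster, and for Pcdhb this was 66.5%. The windows at the median had covered shares of 0.734% and 0.748%, so that both clusters were above the middle of the genome, although below the mean covered share of 6.75% and the 4.57% of chromosome 18.

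The sites at protocadherin starts were narrower at the median than those at other genes, as listed and after merging. The widest promoter site of a marked protocadherin had a median width of 646 bp, compared with 3978 bp over the 5848 protein-coding genes with a promoter site. These widths depend on how neighbouring sites are joined. With sites less than 1 kb apart merged, the medians were 1286 bp and 6373 bp, and with sites less than 3 kb apart merged, 3051 bp and 11467 bp. Sites of at least 1000 bp were found at 3 of the 8 marked genes, Pcdhac2, Pcdhb15 and Pcdhb16, compared with 83.2% of all marked genes. The closest site lay over the start at 4 of the 8 genes (Pcdhac1, Pcdhac2, Pcdhb1 and Pcdhb15), downstream at Pcdhb13, Pcdhb14 and Pcdhb16, and upstream at Pcdhb17. Among all marked genes it lay over a start in 79.5%. In terms of sequence covered, 5.38% of the bases of the variable first exons of the 57 genes were in a site, in 7 genes, compared with 19.6% of first exons of all protein-coding genes. This share was 6.48% in Pcdha, 8.22% in Pcdhb and 0% in Pcdhg. The variable first exons had a median length of 2610 bp, and the comparison with all first exons was not matched for exon length.

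Of the 49 unmarked protocadherins, 30 were more than 50 kb away from any site, whereas 38% of unmarked genes in general were. The median distance was 69197 bp for protocadherins and 30137 bp for all unmarked genes. Since the starts of a cluster share the same neighbouring sites, these distances are not independent of each other.

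The base composition of the sites is given by position, although exons hold little repeat sequence in general, so that the split itself bears on these values. The 9 sites that touched a variable exon had a median CpG observed/expected ratio of 0.457 (range 0.305 to 0.629) and a median of 3.15% of bases masked as repeats (range 0% to 11.4%). The other 15 sites between Pcdha1 and the end of Pcdhg had a median ratio of 0.114, with a range from 0 to 0.342, and a median of 18.1% of masked bases (range 0.893% to 100%). The ranges of both measures overlapped. Of these, 3 lay between Pcdha and Pcdhb, 7 between Pcdhb and Pcdhg, where no member starts, and 5 within the Pcdhb cluster. The widest was a site of 4692 bp (37646010 to 37650701), 11092 bp upstream of Pcdhga1 and outside annotated exons.

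Base composition at the starts was taken over 500 bp on each side of the outermost start. The 12 unmarked numbered Pcdha genes had CpG ratios from 0.569 to 0.749 and a GC content from 42.5% to 46.7%, below the 55.8% of Pcdhac1 and the 57.7% of Pcdhac2, the marked genes of the cluster. The CpG ratio was 0.564 at Pcdhac1, just below this range, and 0.681 at Pcdhac2, within it. The marked Pcdhb genes had lower CpG ratios than the Pcdha genes, from 0.219 at Pcdhb16 to 0.519 at Pcdhb1, with a median of 0.440. Unmarked Pcdhb genes lay in an overlapping range of 0.158 to 0.488, with a median of 0.364. The GC content of the marked Pcdhb genes had a median of 43.3% (range 41.1% to 49.8%) and that of the unmarked ones a median of 40.9% (range 33.8% to 44.9%). In the Pcdhg cluster, without marked genes, GC content ranged from 38.9% to 58.0%, with the highest value of the family at Pcdhgc3. Over all protein-coding genes the median was 54.8% GC with a CpG ratio of 0.558, and the 57 protocadherins had 44.9% GC with a CpG ratio of 0.564.

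**Figure D3:**
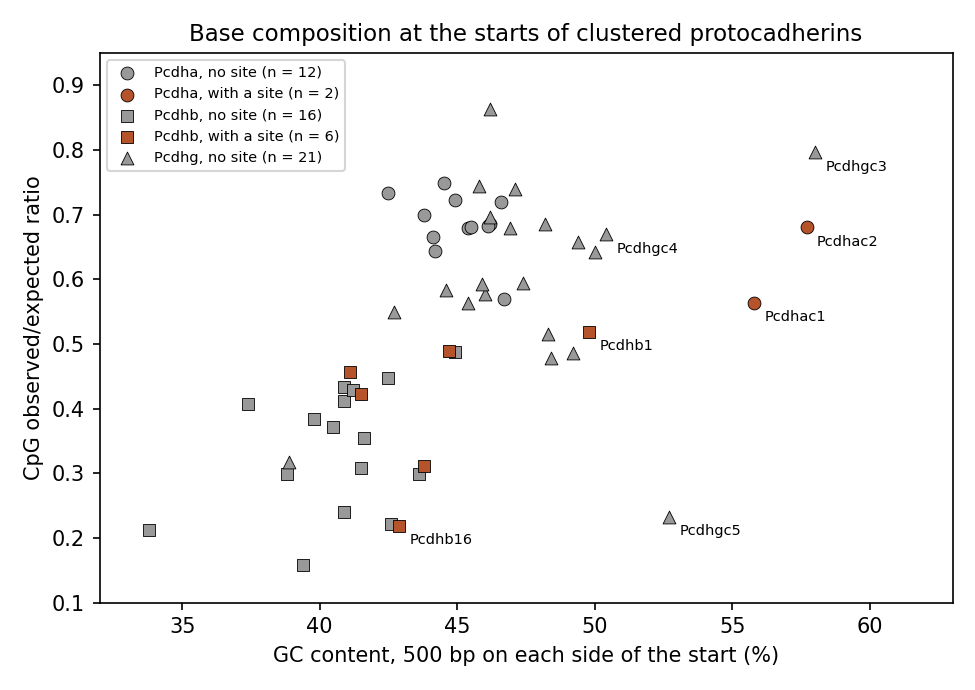
GC content (x axis, %) and CpG observed/expected ratio (y axis) in the 500 bp on each side of the start of each of the 57 genes, by cluster (symbol) and by presence of a promoter site (orange). The 8 genes with a site spread from 0.219 to 0.681 on the CpG axis among genes without a site, and Pcdhgc3 lay close to the marked Pcdhac2.

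Because the genes of a cluster resemble each other, reads from them can match several places and may then be lost in filtering. The share of 75-base words of a sequence that occur once in the primary GRCm38 assembly was therefore computed, 75 being the number of cycles of the sequencing kit. Within 1 kb of the start this share was 88.9% to 97.3% for 11 of the 12 numbered Pcdha genes and 99.0% for Pcdha9. It had a median of 100% in both Pcdhb (minimum 93.8%) and Pcdhg (minimum 94.3%). The marked genes had 100% in each case, to 3 digits, whereas the unmarked genes ranged from 88.9% to 100%. Among the unmarked Pcdhb genes, Pcdhb2, Pcdhb3, Pcdhb5 and the 5 genes from Pcdhb18 to Pcdhb22 reached 100% as well. Adding the patches and alternate sequences of the assembly left the share of unique words of the whole cluster at 87.3% in Pcdha and 98.0% in Pcdhg, with 92.1% before and 92.0% after in Pcdhb. Read loss itself was not tested.

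The other adhesion genes of the cadherin superfamily provided a comparison. Any annotated start of a gene counted here too, and the number of starts per gene was not matched between lists. Of 12 non-clustered protocadherins, which share no exons with each other, 7 had a promoter site. These were Pcdh1 (13512 bp), Pcdh8 (9392 bp), Pcdh17 (6778 bp), Pcdh15 (6255 bp), Pcdh10 (3892 bp), Pcdh12 (2880 bp) and Pcdh20 (2482 bp). Of 23 genes named Cdh with a number, 13 had one, led by Cdh22 (55254 bp) and Cdh23 (16494 bp), a component of tip links in hair cells. By width these were followed by Cdh15 (11306 bp), Cdh16 (10953 bp), Cdh6 (7921 bp), Cdh20 (4353 bp), Cdh26 (4085 bp), Cdh8 (4023 bp), Cdh4 (3195 bp) and Cdh1, the epithelial E-cadherin (2916 bp). The Ugt1a cluster on chromosome 1 is built like Pcdha, with variable first exons joined to shared ones. There 4 of 9 genes had a promoter site (Ugt1a10, 1562 bp, Ugt1a8, 1383 bp, Ugt1a2, 993 bp, and Ugt1a1, 572 bp), and 22 sites covered 10.1% of its 164615 bp. The intervals of these shares were wide (32% to 80.7%, 36.8% to 74.4% and 18.9% to 73.3%), and no test of the difference from the clustered genes was made.

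The surroundings of the locus were counted in the same way. Of 34 other protein-coding genes with a start from 500 kb before Pcdha to 500 kb after Pcdhg, 7 had a promoter site (20.6%). These were Pcdh1, Arap3 (9749 bp), Slc4a9 (3278 bp), Rnf14 and Pcdh12 (the same site of 2880 bp), and Rell2 and Hdac3 (the same site of 401 bp). Pcdh1 and Pcdh12 thus belong to both comparisons.

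**Figure D4:**
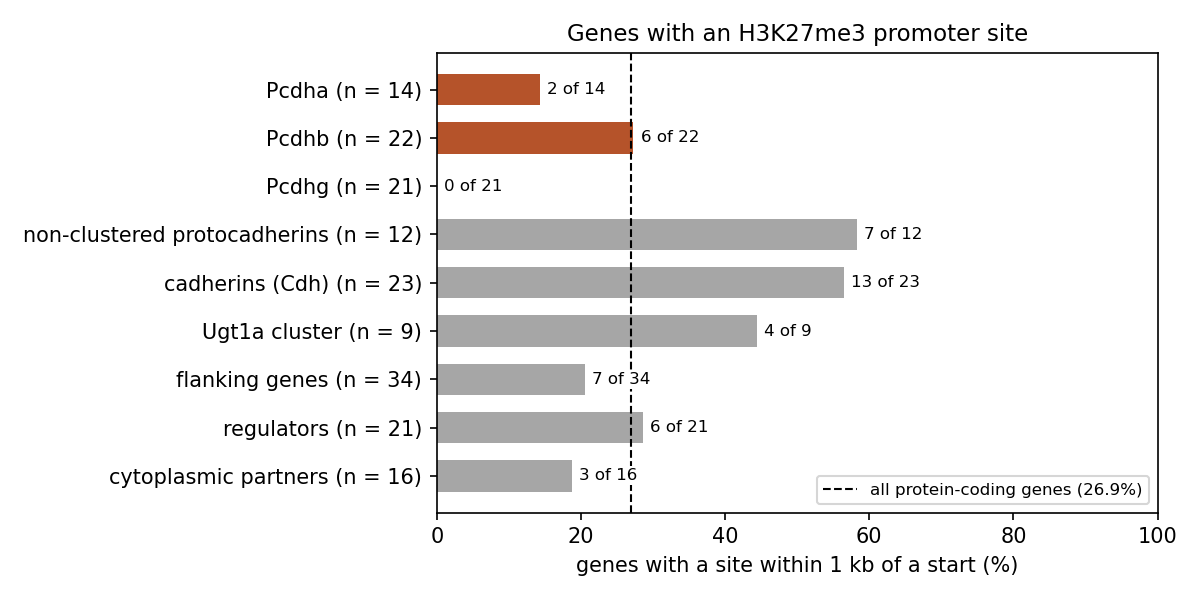
Percentage of genes with an H3K27me3 site within 1 kb of a start (bars, with counts) in the Pcdha, Pcdhb and Pcdhg clusters (orange) and in the comparison lists (grey); the dashed line is the 26.9% of all protein-coding genes. Pcdhb (6 of 22) lay at the line, Pcdha (2 of 14) and Pcdhg (0 of 21) below it, and the non-clustered protocadherins (7 of 12) above it.

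Among 21 genes that control the use of protocadherin promoters, 6 had a promoter site (28.6%). These were the DNA methyltransferase genes Dnmt3a (3847 bp) and Dnmt3b (408 bp), the cohesin gene Smc1a (3162 bp), the methylcytosine dioxygenase genes Tet3 (2701 bp) and Tet1 (2634 bp), and the H3K9 methyltransferase gene Setdb1 (305 bp). The 15 without a site included Ctcf, Rad21, Nipbl, Wapl and Smchd1, a repressor of the clusters. Of 16 genes for cytoplasmic partners, 3 had a site, namely Ret, a receptor tyrosine kinase (9961 bp), Cyfip2, a subunit of the WAVE complex (5742 bp), and the kinase gene Fyn (200 bp, the smallest width of the list). Both shares were within wide intervals (13.8% to 50.0% and 6.59% to 43.0%) that include the 26.9% of all genes.

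The origin of the cells can be set beside these values only through the mark itself, since the list holds no expression. A promoter site was found at 1 of 12 fibroblast marker genes (Pdgfra, 810 bp) and at 10 of 12 neuron marker genes, the widest at Rbfox3 (59309 bp) and Gad1 (29549 bp). The interval of the fibroblast share (1.49% to 35.4%) includes the 26.9% of all genes, and that of the neuron share (55.2% to 95.3%) lies above it. Both lists were chosen with earlier results of these data known, and the intervals are not a test. Most clustered protocadherins, which are used in neurons too, lacked a listed site, whereas most neuron markers had one. Whether the unmarked members were expressed in these cells was not tested. A gene without a listed site may still carry H3K27me3 below the cutoff of the peak caller, and the list does not show in which of the groups a listed site was present.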

How the data were processed

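H3K27me3 ChIP-seq sites of iMEF cells were analysed as 1 pooled list. The deposited columns are the start and end position of each site, a position in bp and no other value, for 8 H3K27me3 libraries. After trimming (Trim Galore), the authors mapped reads to mm10 (GRCm38.p6) by BWA, filtered with samtools, merged replicates with Picard and called broad peaks with MACS, per the methods of the study. Versions, cutoffs and the rule that joined peaks of different samples are not given in the sources used here. A broad peak caller sets the smallest width and the gaps that are bridged, so that neighbouring narrow sites may be 1 domain.

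Starts were read as counted from 0, because no end exceeded its start by less than 200 bp, and are printed counted from 1. Transcription starts and exons came from GENCODE M21 on GRCm38, the assembly of the list, and sequence from GRCm38.p6. The variable exon was the longest first exon of a protein-coding transcript. Wilson intervals are at 95%. Consecutive windows with over 10% of unknown bases were left out. Python 3.11.15, numpy 2.4.6 and pysam 0.24.0 were used, and the counting functions were tested on simulated data. The members and gene lists were chosen with earlier results of these data known. Genes were named by rule: all marked members, the first and last genes of a cluster, the C-type genes, and of each comparison list up to 10 marked genes by width. The other unmarked members and the unmarked regulators that appear by name were chosen after their values were seen. In the list of regulators, 1 gene is not reported here. The tests between time points fixed in the design need values per library and were not run.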

Additional observations from a re-analysis of the deposited data

How the results depend on the processing

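The choice of sites changed the count of marked protocadherins more than the choice of window. With sites of at least 500 bp only, 5 members were marked, 3 of them in Pcdhb, while 24.9% of all protein-coding genes were. With sites of at least 1000 bp, 3 members remained (Pcdhac2, Pcdhb15 and Pcdhb16), 1 in Pcdha and 2 in Pcdhb, against 22.4% of all genes. These filters remove narrow sites by construction. With windows of 500 bp and 3 kb, 6 and 9 members were marked, and with the centre of the site in the window, 7 (12.3%, against 18.5% of all genes). Merging of sites, outermost starts and starts of protein-coding transcripts each left the same 8 members, against 24.1% of all genes with outermost starts and 25.8% with starts of protein-coding transcripts. Pcdhg had 0 in each of these settings. The covered share ranged from 1.67% to 2.31% in Pcdha and from 2.07% to 5.79% in Pcdhb, the highest after merging of sites less than 3 kb apart. The median width of the widest promoter site of marked members, 646 bp, was 1286 bp and 3051 bp after merging of sites less than 1 kb and less than 3 kb apart, an alternative chosen after seeing the data. No paired analysis was possible because the list holds no value for a library, and for the same reason no replicate could be left out and no other normalization or tool tried.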
